A study of Homo sapiens with 8 samples.

Results

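The genes of the MYC-MAX-MXD network were examined for RFX7 binding in U2OS, a human osteosarcoma cell line. The 8 genes taken were MYC, MAX, MXD1, MXI1, MXD3, MXD4, MNT and MLX, out of 20037 protein-coding genes in the RefSeq GRCh38.p14 gene table. They were chosen by name, and a gene was counted as having an RFX7 interval when the midpoint of a listed interval lay inside it or within 50 kb of either end. Chromatin immunoprecipitation with an RFX7 antibody (3 µg per precipitation), followed by sequencing, was done in 2 replicates after 24 h with 10 µM Nutlin-3a and in 2 replicates after 24 h with the solvent DMSO. Nutlin-3a stabilises p53 by blocking its binding to MDM2. Both treatments also had 2 input DNA replicates, whose values were not analysed here. Each treatment is represented by 1 merged list of intervals, 304 after Nutlin-3a and 213 after DMSO. No value below therefore has a replicate error, and the sequencing depth behind the lists is unknown, so an interval that is not listed was not called at this depth and is not shown to be absent.

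MYC activates transcription as a dimer with MAX on the E-box, the palindrome CACGTG. The MXD proteins (MXD1, MXI1, MXD3 and MXD4) and MNT compete for MAX and repress through the same element, in part by recruiting SIN3 and histone deacetylases, and are known for their roles in cell cycle exit and differentiation. MLX is a MAX-like partner of a few of these repressors and of the nutrient-responsive factors MLXIP and MLXIPL. RFX proteins are winged-helix factors that bind the X-box, built from short core elements such as GTTGCC and GTTGCT.

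MXD4 was not the only network gene with an RFX7 interval. After Nutlin-3a, 2 of the 8 genes had one, MXD4 and MXI1, both of them MXD-type repressors, and each had 1 interval. This is 25% of the network genes (95% exact Clopper-Pearson interval 3.19 to 65.1%, counting error only), beside a share of 2.94% over all 20037 protein-coding genes. After DMSO, 0 of the 8 had an interval, beside 0.559% over all protein-coding genes. A count of 0 of 8 allows a share of up to 37.5%, taking 3 counts of the total as the limit here and for the counts of 0 below. With 8 genes picked in the knowledge of earlier results, these shares are descriptions and were not tested.

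The MXD4 interval covered chr4:2262154-2262721 and lay just outside the gene (chromosome 4, 2247432 to 2262109, read from the minus strand), in front of its start. It reached from 612 to 45 bases upstream of the annotated start site, and its midpoint was 328 bases upstream. The promoter table used here gives 250 bases before and 50 after each start, and 206 of the MXD4 window's 300 bases fell inside the interval. That stretch is printed because it is the part of the bound region for which a sequence was at hand. It is chr4:2262154-2262359 on the minus strand, RefSeq GRCh38.p14, 5′ to 3′, with the E-box, the longer RFX form GTTGCTA and a further stretch GTTACTA in capitals:
MXD4: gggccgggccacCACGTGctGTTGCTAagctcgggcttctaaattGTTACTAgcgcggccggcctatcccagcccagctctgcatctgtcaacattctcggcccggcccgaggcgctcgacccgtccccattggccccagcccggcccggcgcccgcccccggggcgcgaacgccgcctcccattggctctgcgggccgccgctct
The E-box began 238 bases before the start and GTTGCTA began 230 bases before it, with 2 bases between them. GTTGCTA was 98 bases from the midpoint of the interval and the E-box 90. GTTACTA, singled out after the sequence had been read, began 205 bases before the start.

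Among all 35116 promoter windows of the table, 2.85% held GTTGCTA on either strand, 12.8% held the shorter GTTGCT inside it and 7.26% held the E-box. Of the 146 windows that overlapped a Nutlin-3a interval, 19.9% held GTTGCTA, 39% GTTGCT, 28.1% GTTGCC and 11.6% the E-box. The core element GTTGCC was found in 12.2% of all windows, and GTTACC in 6.46% of all windows and 2.74% of those overlapping an interval. The paired X-box has GTTGCC facing a second core element in the opposite direction. It was in 0.362% of all windows and in 1 of those overlapping an interval (0.685%). For GTTACTA the shares were 1.36% of all and 4.11% of those overlapping an interval. A match is a string of letters in a window and not a measured site. Any shared base counted as overlap, so a match in an overlapping window may lie outside the interval.

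Of the 8 network genes, 7 had 1 or more windows in the table, 10 windows in all, and MYC had none. MXD4 was the 1 network gene whose windows held GTTGCT or GTTGCTA. None of the 7 held GTTGCC or the paired X-box. With 10 windows this cannot be told from the 12.2% and 0.362% found over all windows. MXD3 held GTTACC, 44 bases after its start and outside any listed interval. The E-box was in the windows of 3 of the 7 genes, MXD4, MNT and MLX. Each of these has 1 window, so by windows the count is 3 of 10, beside 7.26% over all windows. This was not tested. Neither MNT nor MLX had an RFX7 interval, and their E-boxes are set beside that of MXD4 to show the letters around the same element, each as 42 bases of the gene's sense strand with the E-box and GTTGCTA in capitals:
MXD4, chr4:2262318-2262359, minus strand: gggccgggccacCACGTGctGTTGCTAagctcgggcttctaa
MNT, chr17:2401224-2401265, minus strand: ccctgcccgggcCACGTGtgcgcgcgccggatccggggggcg
MLX, chr17:42567038-42567079, plus strand: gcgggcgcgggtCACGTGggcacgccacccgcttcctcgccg
Since MXD4 alone held GTTGCTA, the RFX form next to the E-box could appear only in its line. The lines are therefore no comparison of genes with and without an interval.

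The MXI1 interval covered chr10:110211201-110211429 and lay inside the gene (chromosome 10, 110207605 to 110287365, plus strand). MXI1 has 3 annotated start sites in the table. The interval began 970 bases and ended 1198 bases downstream of the middle one, its midpoint 1084 bases from it. It was 3710 bases downstream of the first start and 14681 bases upstream of the third. Whether these bases are exon or intron was not assigned here. None of the 3 promoter windows reached the interval, so its sequence was not read. The windows held none of the motifs searched, which says nothing of the interval itself. Of the 294 Nutlin-3a intervals on chromosomes with promoter windows, 103 (35%) had a midpoint within 500 bases of a protein-coding start, as at MXD4. A further 19 (6.46%) had one between 1000 and 1500 bases from the nearest start, as at MXI1.

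**Figure D1:**
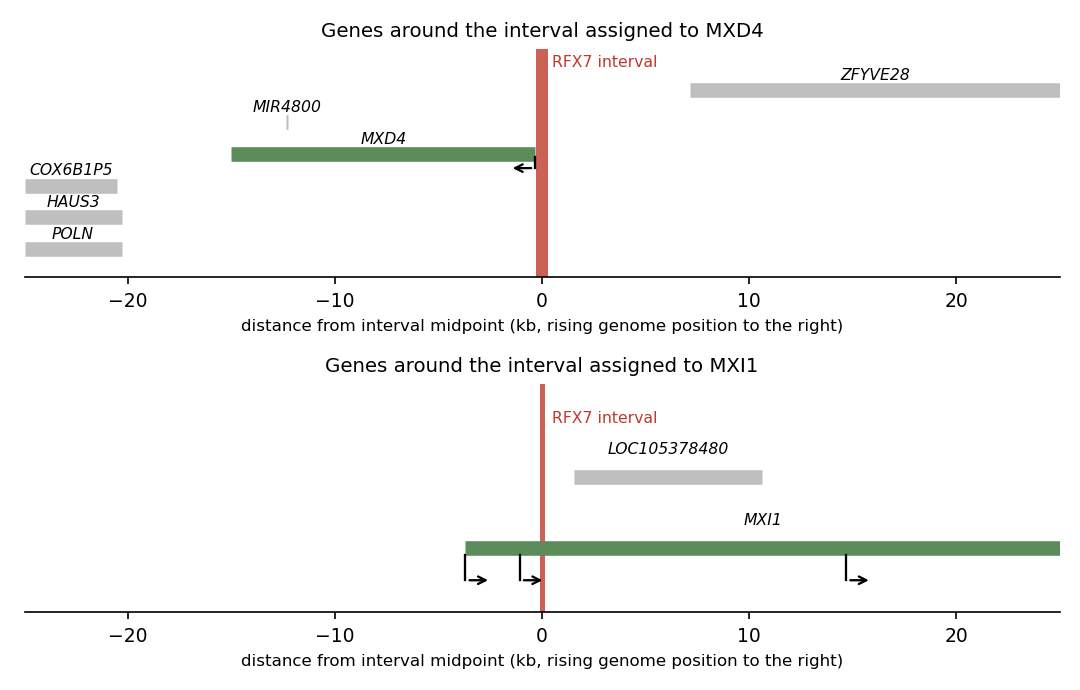
Annotated genes around the intervals assigned to MXD4 (top) and MXI1 (bottom), against distance from the interval's midpoint in kb; green bars are the member gene, grey bars other genes, bent arrows the annotated start sites of the member and the red band the RFX7 interval. The interval stands in front of the single MXD4 start, and between the middle and the third start of MXI1, 1084 bases past the middle one.

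Other genes lay within 50 kb of these intervals, measured to their midpoints. The MXD4 interval was 7160 bases from ZFYVE28, a FYVE zinc-finger protein gene, and 20316 bases from both POLN, a DNA polymerase gene, and HAUS3, a gene for a subunit of the augmin complex. The microRNA gene MIR4800, inside MXD4, was 12281 bases away, and the pseudogene COX6B1P5 20528 bases. Of these, MXD4 was the nearest. For the MXI1 interval, the only other annotated gene within 50 kb was the long non-coding LOC105378480, 1553 bases away. The next interval of the Nutlin-3a list on chromosome 10 was 0.66 Mb from that of MXI1, and the next on chromosome 4 was 37.8 Mb from that of MXD4, so both were single intervals.

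The authors' fold enrichment at MXD4 was 6.24 and its −log10 q was 14.9. By fold enrichment it ranked 89 of 304, level with 5 other intervals, and by −log10 q it ranked 104, level with 1 other. For the interval at MXI1 the corresponding values were 5.58 and 15.7. It ranked 116 by fold enrichment and 99 by −log10 q, level with 1 other. Both genes stood in the upper part of the list, above its medians of 4.71 for fold enrichment and 10.2 for −log10 q, and far from its highest values of 12.03 and 67.6. Their order depended on the column: MXD4 was ahead by fold enrichment and MXI1 by −log10 q. Neither difference can be set against an error. The intervals differed in width, 568 bp at MXD4 (rank 68 from the widest) against 229 bp at MXI1 (rank 220), around a list median of 339.5 bp.

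**Figure D2:**
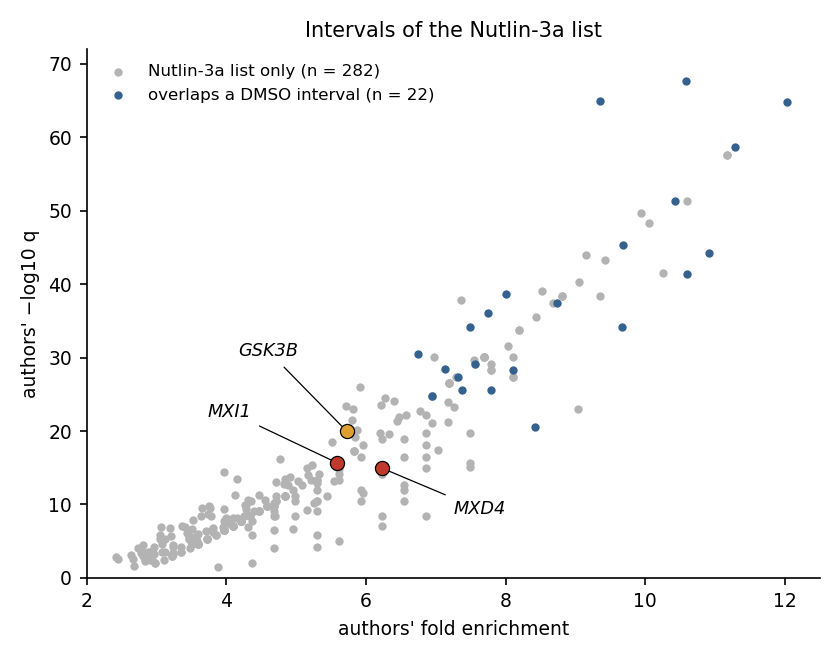
Every interval of the Nutlin-3a list by the authors' fold enrichment (horizontal) and −log10 q (vertical); blue points overlap an interval of the DMSO list, grey points do not, red points are MXD4 and MXI1, and the orange point is GSK3B. MXD4 (6.24 and 14.9) and MXI1 (5.58 and 15.7) sit in the middle of the cloud, below all the blue points on the horizontal axis and on the vertical axis.

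No interval of the DMSO list lay near either gene. The nearest were 33.7 Mb from MXD4 and 4.17 Mb from MXI1. The 22 Nutlin-3a intervals that overlapped a DMSO interval by at least 1 base ranked 78 or higher by −log10 q and 77 or higher by fold enrichment. It follows that the 226 intervals ranked lower by −log10 q, MXD4 and MXI1 among them, had no DMSO counterpart. That group is defined by the lowest-ranked shared interval, so its lack of counterparts is not a separate observation. The DMSO list reached down to 1.32 in −log10 q and to 2.12 in fold enrichment. A lower RFX7 occupancy after DMSO and a shallower or weaker DMSO list cannot be told apart here.

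The genes most like MXD4 and MXI1 in this measure were those nearest the intervals with adjacent −log10 q in the Nutlin-3a list. Level with MXI1 was an interval 56 bases from SOX12, a transcription factor gene, with a fold enrichment of 7.48. Just above it, between 16.1 and 16.5 in −log10 q, were intervals inside MAN1A2 and PI4K2A. Others there were nearest to CALCOCO1 (12462 bases away) and DAGLB (6292 bases away). Between MXI1 and MXD4 came intervals inside PHLDB2, nearest to KIF5B (82946 bases away) and inside ARL15. Level with MXD4 was an interval 23 bases from CENPVL3. Below it came intervals nearest to AGBL1 (137761 bases away) and inside MSI2. KIF5B and AGBL1 thus lie beyond the 50 kb limit used for the network genes. Then came 4 intervals with an equal −log10 q of 14.1. They lay inside SESN3 and SHBG, 201 bases from SPRYD3 and 9473 bases from FRG2. The intervals of SESN3, which encodes a stress-induced regulator of mTORC1, and of FRG2 had the same fold enrichment as MXD4, 6.24. They were among the 5 other intervals level with MXD4 in that column, so the equal value does not single them out. Each of these intervals was listed only after Nutlin-3a, as was every interval ranked lower than 78 by −log10 q. The likeness is 1 value in 1 list.

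The remaining 6 network genes had no interval within 50 kb in either list. For MYC, the activator of the network (chromosome 8, 127735434 to 127742951), the nearest midpoint was 2291 kb away in the Nutlin-3a list and 3797 kb away in the DMSO list. For MAX, the shared partner (chromosome 14, 65006101 to 65102695), the distances were 3.02 and 2.62 Mb. MAX is the longest of the 8 genes, 96595 bp, and so had the widest window.

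Among the repressors, MXD1 (chromosome 2, 69915109 to 69942945) was 4.52 Mb from the nearest Nutlin-3a midpoint and 6.04 Mb from the nearest DMSO midpoint. MXD3 (chromosome 5, 177305499 to 177312752) was 26.7 and 10.5 Mb away. MNT came closest of the 6, with a Nutlin-3a midpoint 0.667 Mb away that ranked 145 by −log10 q and 138 by fold enrichment. MNT lies at chromosome 17, 2384073 to 2401060, and its nearest DMSO midpoint was 50.2 Mb away. MLX (chromosome 17, 42567100 to 42573203) was 5.97 Mb from a Nutlin-3a midpoint and 10.05 Mb from a DMSO one. The 4 MXD paralogues thus divided into MXI1 and MXD4 with an interval at the gene and MXD1 and MXD3 with none within several megabases.

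**Figure D3:**
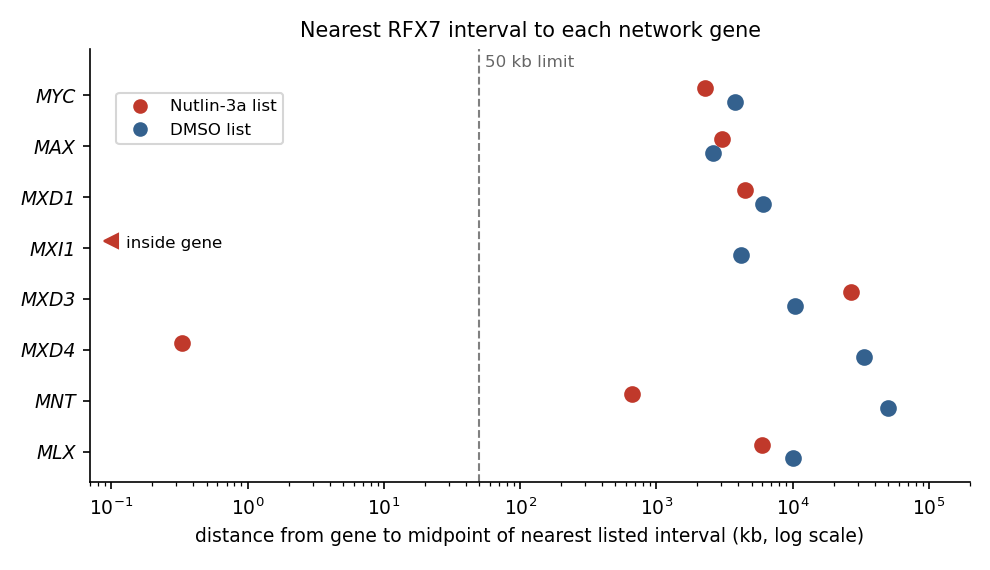
Distance in kb (log scale) from each of the 8 network genes to the midpoint of the nearest interval in the Nutlin-3a list (red) and the DMSO list (blue); the triangle marks a midpoint inside the gene and the dashed line the 50 kb limit. MXD4 and MXI1 after Nutlin-3a are left of the limit, and every other point lies at 667 kb or beyond.

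The contrast between the 2 genes and the rest did not depend on the distance allowed. This follows from the distances above, with midpoints at 328 bases (MXD4) and 0 bases (MXI1) and all others at 667 kb or beyond. With limits of 5, 10, 50 and 100 kb, MXD4 and MXI1 remained the 2 network genes with a Nutlin-3a interval, and 0 had a DMSO interval. Over the same limits the share of all protein-coding genes with a Nutlin-3a interval rose from 1.11 to 1.33, 2.94 and 4.77%, as a wider limit must. The DMSO shares were 0.294, 0.319, 0.559 and 0.948%.

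**Figure D4:**
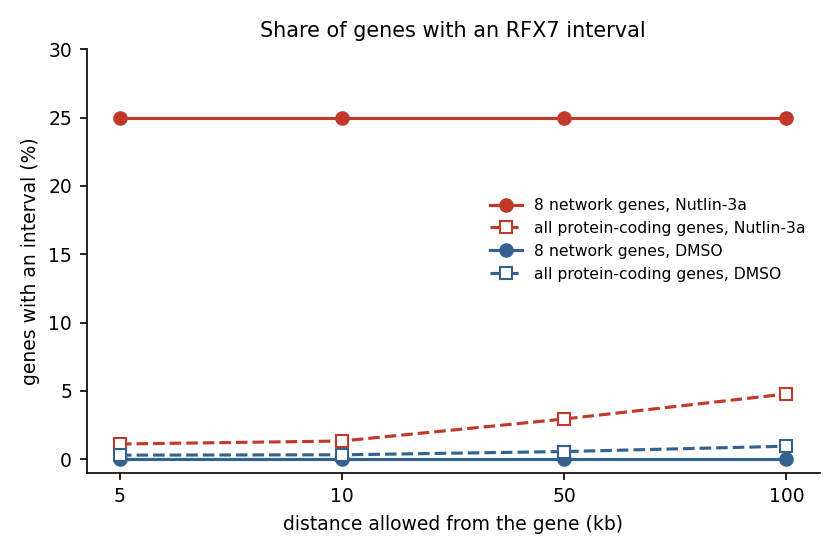
Percent of genes with an interval inside them or within the distance on the horizontal axis (kb), for the 8 network genes (filled circles) and all 20037 protein-coding genes (open squares), after Nutlin-3a (red) and DMSO (blue). The network share is 25% after Nutlin-3a and 0% after DMSO at all 4 distances, while the share of all genes stays under 5%.

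Genes that work with the network were then counted, to be read beside the 2.94% (Nutlin-3a) and 0.559% (DMSO) of all protein-coding genes. Of 5 further DNA-binding members (MYCN, MYCL, MGA, MLXIP and MLXIPL), 0 had a Nutlin-3a interval within 50 kb, which allows a share of up to 60%. MYCL, a MYC paralogue, came nearest at 0.259 Mb, and the other 4 were 1.01 to 10.9 Mb away. Of 13 subunits of the SIN3-HDAC and NCOR corepressors, through which MXD proteins repress, 0 had an interval, which allows up to 23.1%. Of 9 coactivators of MYC, among them TRRAP and KAT5, 0 had one, which allows up to 33.3%. None of these genes had a DMSO interval either. Lists of 5, 13 and 9 genes are too short to tell a count of 0 from these background shares.

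Of 10 genes for enzymes and binding partners in MYC turnover, 1 had a Nutlin-3a interval and 0 a DMSO interval. It was GSK3B, which encodes a kinase known to phosphorylate MYC ahead of its recognition by FBXW7. The GSK3B interval covered chr3:120094830-120095109, with its midpoint 522 bases upstream of the start. Its fold enrichment was 5.72 (rank 110) and its −log10 q 20.0 (rank 80). By fold enrichment it stood between MXD4 and MXI1, and by −log10 q it ranked above both. The nearest annotated gene to the midpoint of this interval was not GSK3B but the non-coding GSK3B-DT, 135 bases away. The end of the interval reached into GSK3B-DT (chromosome 3, 120095104 to 120110379). The share of 10% (0.253 to 44.5%) stands beside the 2.94% of all protein-coding genes and was not tested.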

How the data were processed

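The deposited files were 1 list of merged RFX7 intervals per treatment, without replicate numbers. Per the submitters' processing notes, the build was hg38 and the tools included Trimmomatic 0.39, SAMtools 1.10, MACS2 2.2.7.1 and bedtools 2.29.2. The aligner, the settings and how replicates were merged are not given in the sources used here. Fold enrichment (a ratio, column 7) and −log10 q (column 9) are the authors' own values per interval, and were used to describe and rank intervals within their own list. The deposited peak score was not used. Summit positions are not filled in, so midpoints were used.

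Intervals were assigned to genes in Python 3.11.15 (SciPy 1.17.1), after a test on simulated intervals. Rank 1 is the highest value, and level values share the better rank. Motifs were exact strings on both strands. Positions are 1-based.

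The genes, lists and naming rule were chosen with earlier results of these data known. All 8 members were named, with every interval assigned to them or to a gene of the other lists, the genes within 50 kb of it and the 3 intervals next above and below each member's by −log10 q, including level ones. Alternatives changed the distance, the intervals taken and the ranking.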

Additional observations from a re-analysis of the deposited data

How the results depend on the processing

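For 9 results, 33 values were recomputed, of which those for the rank of MXI1 were added after seeing the data. Of these, 28 stayed within 1.5 times the reported count or, for ranks, within the exact interval of the rank's share of the list. The numbers of network genes with an interval, 2 after Nutlin-3a and 0 after DMSO, held under all 6 alternatives run, among them a −log10 q of at least 10. Narrower limits and −log10 q filters can only lower a count, so the DMSO count of 0 had to hold under them. Both genes' −log10 q, 14.9 and 15.7, exceeded the cut-offs used, and the next nearest midpoint, at MNT, was 667 kb away. These alternatives therefore had little room to change either count. With a 100 kb limit the partner genes with a Nutlin-3a interval numbered 2 in place of 1, HUWE1 being 54.9 kb away. Joining neighbouring intervals within 1 kb left 258 intervals, of which MXD4 ranked 104 by −log10 q and 89 by fold enrichment, and MXI1 99 and 116. These rank numbers are unchanged but are a larger share of the shorter list, so 3 of the 4 (not MXD4 by fold enrichment) are among the 5 values that moved. Among the 222 intervals within 5 kb of a protein-coding gene, MXD4 ranked 76 and 67, and MXI1 72 and 85. With only the 250 bases before the start searched, the network genes with an X-box core element numbered 1, MXD4, in place of 2, since the MXD3 match lies after the start.

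No paired analysis was possible because the intervals carry no replicate number. Leaving out single replicates was not run for the same reason. Unknown depth limits every statement that an interval was not listed.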

Other observations

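The closeness of the E-box and GTTGCTA at MXD4 was noticed in its sequence and then counted, so the following is a description made after the values were seen. Both strings occurred in 64 of 35116 promoter windows (0.182%), 3 of them among the 146 that overlapped a Nutlin-3a interval. In 8 windows, of 7 genes, they were at most 10 bases apart. Of these, 2 overlapped a Nutlin-3a interval, those of MXD4 and of CDK4, the kinase that drives the cell cycle together with D-type cyclins. MXD4 had to be among the 2, since the closeness was noticed in its sequence. Windows overlapping an interval also held GTTGCTA more often than all windows did, 19.9% against 2.85%. The count therefore does not bear on the E-box, and a link between the strings was not tested. The CDK4 interval covered chr12:57752385-57752693 and had a fold enrichment of 6.24, equal to that of MXD4 (rank 89 for both), and a −log10 q of 18.9 (rank 86). It too had no overlapping DMSO interval. The other 5 genes with such a window were BSG, BSG-AS1, LOC105373100, PAGE2B and EDA2R. The windows of BSG and BSG-AS1 overlap and hold the same GTTGCTA, as do both windows of EDA2R. The 8 windows are therefore fewer than 8 separate places.

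The surroundings are printed for both genes, 42 bases of the sense strand, with the E-box and GTTGCTA (or its reverse complement TAGCAAC) in capitals:
MXD4, chr4:2262318-2262359, minus strand: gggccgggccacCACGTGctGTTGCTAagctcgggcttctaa
CDK4, chr12:57752497-57752538, minus strand: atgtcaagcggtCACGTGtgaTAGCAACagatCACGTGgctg
At MXD4, 1 E-box stands 2 bases before GTTGCTA. At CDK4, E-boxes stand on both sides of the reversed form, 3 and 4 bases from it. Which proteins were on these E-boxes in these cells was not measured.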
